A study of Mus musculus with 20 samples.

Results

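The 18 genes described here had more RNA in both Trim33-KO lines of a mouse liver cancer cell line than in the Trim33-WT cells, with a control vector as well as with a vector for Myc. They were chosen by their measured values in CPM (counts of a gene relative to the total count of its library, on the usual per-library scale): each of the 4 KO group means was at least 5 CPM, and the smallest of them plus 0.5 was at least 3 times the larger of both WT group means plus 0.5. Of 13107 listed genes, 12809 carry a symbol and 19 met these criteria. Zfp532 was left out with the other Zfp genes, together with Sod3, Lcn2 and symbols that begin with Zscan4, Naip, Hist, Col, Itg, Lam, Mmp or Adamts. The difference between KO and WT in that experiment is therefore the choice itself and was not tested.

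The RNA-seq libraries come from p19/Nras cells, grown out of a liver tumor driven by Nras in a p19/Arf-null mouse, so that every group lacks p19/Arf and carries the Nras oncogene. In the Myc experiment, cells with a control guide RNA (WT) and 2 lines in which Trim33 was targeted by CRISPR (KO1 and KO2) carried either the empty pWZL vector (Ctrl) or the same vector with Myc, with 2 libraries for each of the 6 groups. In the HU experiment, WT and KO cells given vehicle (called untreated here) were compared with cells kept in 1 mM hydroxyurea (HU), which blocks dNTP supply and stalls replication forks, for 4 hours, with 2 libraries for each of the 4 groups. The KO line used in the HU experiment is not named in the labels, nor is any vector there, and no label states whether the lines are single clones or whether replicates are separate cultures. The labels call the cells HCC from liver.

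Trim33 is a member of the TIF1 family of transcriptional cofactors with Trim24 and Trim28, and it acts as a ubiquitin ligase that binds modified histone tails and Smad proteins. In mouse liver, TIF1 proteins are known to repress endogenous retroviral elements, whose loss of silencing can raise the RNA of genes nearby. Hydroxyurea and Myc both burden DNA replication, hydroxyurea by starving forks of nucleotides and Myc by driving cells into S phase.

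The tables hold 14753177 to 17949430 counts per library in the Myc experiment and 2315327 to 3082202 in the HU experiment. They are separate tables, so tests were made only within each of them, and levels set beside each other across them are a description. Trim33 mRNA itself was lower in the KO than in the WT libraries of the HU experiment (43.00 to 51.5 against 127 to 145 CPM). With the Ctrl vector the WT libraries had 236 and 247 CPM of Trim33, KO1 had 122 and 130.3 and KO2 had 204 and 210.1. With the Myc vector WT had 132 and 158, the libraries labelled KO1 186 and 195 and those labelled KO2 125 and 126, so that the libraries labelled KO1 Myc had more Trim33 mRNA than WT Myc. A frameshift need not lower the mRNA, so these levels do not check the protein. Myc mRNA was at 185 to 222 CPM in KO Ctrl, 462 to 655 in KO Myc, 415 to 421 in WT Ctrl and 461 to 466 in WT Myc libraries. Of 15 hepatocyte markers only Afp was listed in the Myc experiment, and Alb and Hnf4a were not. Of other cell types, 5 of 9 biliary or progenitor markers (Spp1 leading) and 8 of 12 mesenchymal markers (Vim and S100a4 leading) were listed, as were 6 of 10 neural, 2 of 14 blood and 0 of 8 endothelial markers. Afp moved with the groups, from 19.8 to 31.7 CPM in the WT libraries against 0.223 to 8.68 in the KO libraries, and the mesenchymal markers summed to 2975 to 3721 CPM in WT and 3407 to 5399 in KO libraries. Their part in the results was not tested.

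The libraries labelled KO1 and KO2 stood apart in opposite ways under the 2 vectors. Across 13107 genes, the difference KO2 minus KO1 on the log2(CPM + 1) scale with the Ctrl vector had a Pearson correlation of -0.750 with the same difference with the Myc vector (-0.749 over the 13089 genes that are not among the 18). The sign was opposite in 15 of the 18 genes (83.3%) and in 8735 of all genes (66.6%). When each Myc group was set against the other line's Ctrl group instead, the 2 Myc effects had a correlation of 0.672, compared with -0.157 for the pairs as labelled. These correlations are across genes, which are not replicates, and no library enters both sides of any of them, though all come from one table. The labels were kept throughout, and values for the crossed pairs are given after those for the lines as labelled. The choice of the 18 genes asks for the same of both lines and both vectors, so it does not depend on which KO library is called KO1.

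**Figure D1:**
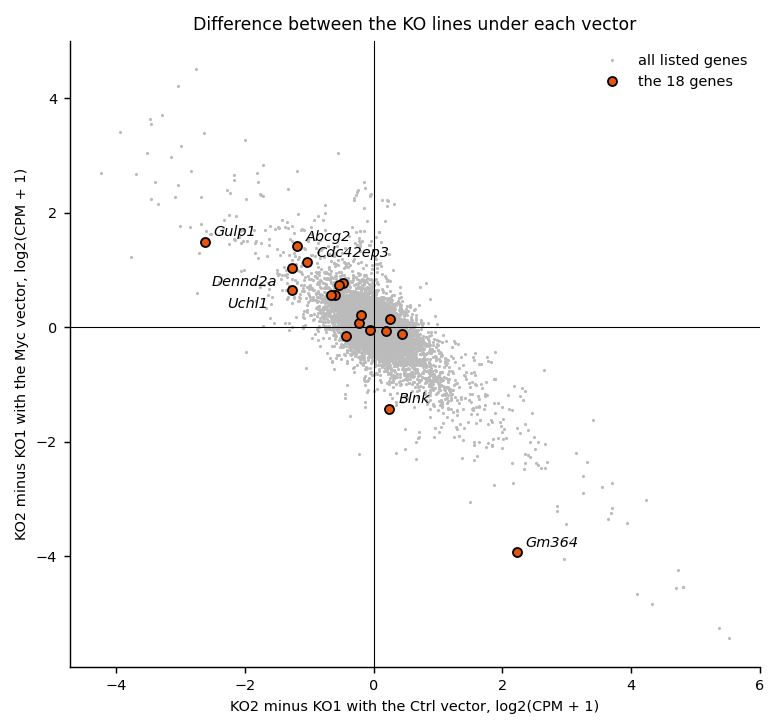
Difference between the libraries labelled KO2 and KO1, as log2(CPM + 1) of group means, with the Ctrl vector (horizontal axis) and with the Myc vector (vertical axis), for 13107 genes (grey) and the 18 genes (orange). The cloud runs from upper left to lower right (r = -0.750), and among the 18 genes Gulp1 lies farthest left and Gm364 farthest right.

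The genes with the largest distance between KO and WT include several that relay signals at the cell surface. Tnfrsf26, a member of the TNF receptor family on chr7:150793568-150813858 (mm9, as are all gene positions here), stood at 1.15 and 0.917 CPM in WT Ctrl and 1.91 and 1.81 in WT Myc, compared with 105 and 99.96 in KO1 Ctrl, 74.6 and 76.6 in KO2 Ctrl, 66.4 and 66.97 in KO1 Myc and 60.3 and 59.5 in KO2 Myc. In bulk RNA, more cells that express a gene and more RNA per cell cannot be told apart. For Tnfrsf26 the fold of summed counts against WT with the same vector ran from 32.3 to 99.3. Gas6, the ligand of the Tyro3, Axl and Mertk receptors, was at 0.0678 and 0.327 CPM in WT Ctrl and 2.57 and 2.35 in WT Myc, while its KO libraries held 20.5 and 22.7, 21.5 and 20.02, 23.2 and 23.7 and 23.6 and 21.4 in the order KO1 Ctrl, KO2 Ctrl, KO1 Myc and KO2 Myc, in which the later values are also given. The 8 KO libraries were thus close together and the spread lay in WT, where both Myc libraries were above both Ctrl libraries.

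Adaptor and scaffold proteins were also among the 18. Blnk, which couples the B-cell receptor to downstream kinases and is best known from B lymphocytes, stood at 6.37 and 6.09 CPM in WT Ctrl and 9.15 and 8.32 in WT Myc, and at 111 and 105, 130.3 and 125, 173 and 168 and 62.6 and 63.3 in the KO groups. The WT Ctrl libraries held 187 Blnk counts together, and the KO2 Myc libraries lay below all other KO libraries. Of 14 blood and lymphoid markers, Cd68 and Hba-a1 were listed, at a summed 1.69 to 3.80 CPM in WT and 3.09 to 6.95 in KO libraries, and the B-cell marker Cd79a was not. Shank3, a scaffold of excitatory synapses, had no counts in any of the 4 WT libraries, while its KO groups held 8.84 and 8.67, 6.76 and 7.99, 8.29 and 8.27 and 8.66 and 8.97 CPM. Taking 3 counts per WT library, the level that a count of 0 allows, Shank3 was at least 36.9-fold higher in KO2 Ctrl and at least 46.7-fold higher in KO2 Myc. Gulp1, an engulfment adaptor, was at 0.678 and 0.851 CPM in WT Ctrl, 2.11 and 2.71 in WT Myc and 62.9 and 64.2, 9.94 and 8.99, 18.3 and 19.9 and 55.3 and 56.2 in the KO groups. The libraries labelled KO1 Ctrl and KO2 Myc were its high ones, and Shank3 by contrast hardly differed between KO groups.

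Several of the 18 are enzymes of lipid, glycan and protein turnover. Chst15, which adds sulfate to chondroitin sulfate chains, was at 0.203 and 0.196 CPM in WT Ctrl and 0.0658 and 0.181 in WT Myc, that is at 1 to 3 counts per library, and at 8.90 and 9.72, 13.4 and 12.6, 8.70 and 7.33 and 7.64 and 6.91 in the KO groups. Uchl1, a ubiquitin hydrolase abundant in neurons, stood at 1.08 and 0.982 CPM in WT Ctrl, 0.526 and 0.301 in WT Myc and 39.3 and 42.8, 18.03 and 15.1, 16.5 and 12.5 and 23.3 and 23.5 in the KO groups. Plcd1, a phospholipase C, was at 0 and 0.131 CPM in WT Ctrl and 0.0658 and 0.362 in WT Myc, compared with 8.18 and 9.72, 7.16 and 4.63, 7.06 and 7.39 and 12.2 and 13.1 in the KO groups. Chst15 and Plcd1 were barely detected in WT. Plcd1 had 2 counts in both WT Ctrl libraries together, and its fold in KO1 Ctrl, 134, has a 95% interval of 36.8 to 1115 (exact conditional binomial), which covers counting error only, as do all intervals here. For Chst15, with 6 counts there, the fold was 46.6 with an interval of 21.1 to 128. Smpdl3b, a membrane-bound relative of the acid sphingomyelinases, stood at 0.0678 and 0.131 CPM in WT Ctrl, 0.921 and 1.93 in WT Myc and 19.9 and 18.5, 13.1 and 11.6, 26.7 and 26.2 and 40.8 and 38.1 in the KO groups. Its highest libraries were those labelled KO2 Myc, and its WT Ctrl libraries held 1 and 2 counts.

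Chromatin, transcription and transport were also represented. H2afy2, which encodes the histone variant macroH2A2, was at 0.339 and 0.262 CPM in WT Ctrl and 0.790 and 1.51 in WT Myc, and at 29.8 and 31.1, 21.7 and 21.5, 17.9 and 17.4 and 31.9 and 29.6 in the KO groups. Abcg2, an efflux pump for drugs and porphyrins, stood at 0.949 and 0.720 CPM in WT Ctrl, 1.84 and 1.75 in WT Myc and 31.3 and 29.1, 12.99 and 12.4, 10.98 and 13.9 and 33.2 and 36.3 in the KO groups. The libraries labelled KO1 Ctrl and KO2 Myc were the high ones in Abcg2, and those labelled KO2 Ctrl and KO1 Myc the low ones. Twist1, a transcription factor of mesenchymal cells, had the narrowest KO range among the factors, with group means of 6.32 to 7.41 CPM with the Ctrl vector and 5.48 to 6.55 with Myc, compared with 0.666 and 1.05 in WT. Creb3l1, a membrane-bound transcription factor of secretory cells, was at 1.49 and 1.18 CPM in WT Ctrl, 0.461 and 1.15 in WT Myc and 15.2 and 13.00, 17.4 and 16.7, 6.36 and 8.52 and 8.12 and 8.58 in the KO groups, with all Myc libraries below all Ctrl libraries in the KO lines.

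Dennd2a and Cdc42ep3, regulators of vesicle traffic and of the cytoskeleton, were high in the same KO groups as Abcg2 and Gulp1. Dennd2a, which activates Rab proteins, was at 0.542 and 0.655 CPM in WT Ctrl, 0.592 and 0.784 in WT Myc and 18.5 and 20.9, 7.62 and 7.47, 8.58 and 7.89 and 18.3 and 17.7 in the KO groups. Cdc42ep3, an effector of the GTPase Cdc42, stood at 0.339 and 0.131 CPM in WT Ctrl, 0.329 and 0.362 in WT Myc and 11.4 and 11.2, 4.11 and 5.95, 6.89 and 5.58 and 14.7 and 14.99 in the KO groups. The libraries labelled KO2 Ctrl and KO1 Myc held less than those labelled KO1 Ctrl and KO2 Myc in both genes. Aif1l, an actin-binding protein, was at 1.15 and 0.786 CPM in WT Ctrl, 3.29 and 3.98 in WT Myc and 21.4 and 22.5, 13.9 and 13.1, 22.6 and 21.5 and 32.95 and 33.5 in the KO groups. The little-characterised Gm364 was at 1.42 and 2.23 CPM in WT Ctrl, 0.526 and 0.723 in WT Myc and 25.7 and 24.7, 125 and 118, 129 and 131 and 7.16 and 7.91 in the KO groups. Gm364 thus was high in the 2 KO groups in which Gulp1 was low, and had the widest range of KO group means of the 18 (17.2-fold), while those of 2210016F16Rik ran from 11.7 to 14.2 CPM.

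The ratio behind it ran from 25.6 (Tnfrsf26) down to 3.39 (Aif1l) and 3.24 (2210016F16Rik), with Cntln at 2.93 and Dab2 at 2.91 just outside. At the floor of 5 CPM, the smallest KO mean was 5.03 in Cdc42ep3 and 5.48 in Twist1, and Cnksr2 at 4.65 and Slc5a7 at 4.52 fell short. The converse rule, with WT above KO by the same margins, was met by 28 genes. When single libraries were left out, 17 to 20 genes met the rule. Asking it of every KO library against the larger WT library left 14, without Cdc42ep3, Gm364, Gulp1 and Plcd1. The Ctrl-vector libraries alone gave 117 genes and the Myc-vector libraries alone 31.

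**Figure D2:**
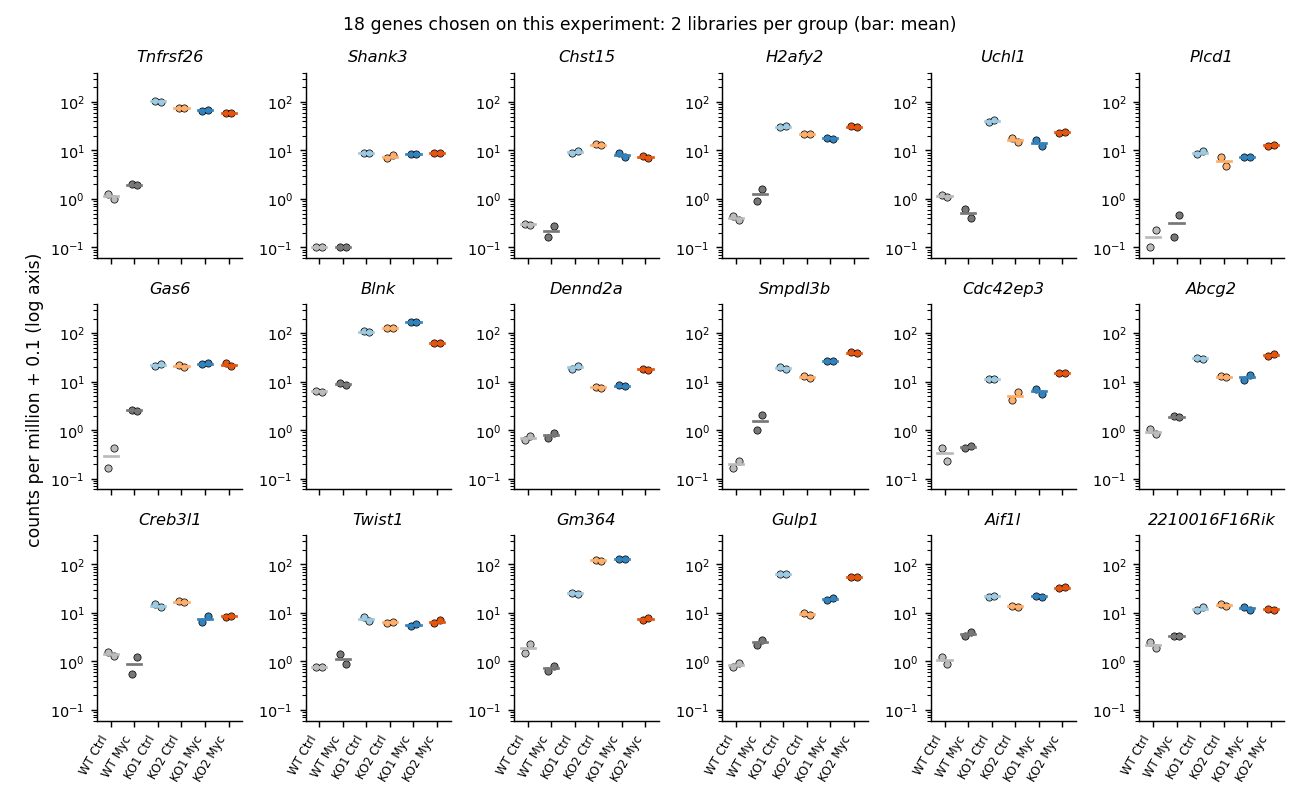
CPM + 0.1 (log axis) of the 18 genes in the 12 libraries of the Myc experiment, 2 points per group with a bar at their mean. All KO libraries lie above all WT libraries in each panel, as the choice of genes largely requires. Gm364 has the widest range among KO groups, with group means from 7.54 to 129.6 CPM.

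The HU experiment measured KO against WT again, in libraries that played no role in the choice, and most of the 18 genes did not stand higher there in KO cells. Of the 18, 15 are listed in that table, and Dennd2a, Cdc42ep3 and 2210016F16Rik are not. In untreated cells 2 of these 15 were higher in KO (6.29% of all 11210 genes tested were) and 5 were lower (5.74% of all genes), by edgeR's quasi-likelihood test at an adjusted p below 0.05. In HU-treated cells 2 were higher (5.75% of all genes) and 6 were lower (5.25%). The median log2FC of the 15 listed genes was -0.89 in untreated and -0.75 in HU-treated cells, whereas the medians of all genes were -0.000128 and -0.00690. The 2 comparisons share no library.

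Blnk and Uchl1 were the 2 genes that stood higher in KO cells here as well. Blnk (chr19:41003417-41069025, minus strand) stood at 37.1 and 27.5 CPM in WT against 124 and 140.2 in KO without HU, and at 46.7 and 29.3 against 181 and 159 with HU. All 4 KO libraries lay above all 4 WT libraries. The log2FC of KO over WT was 2.08 ± 0.18 (SE) in untreated cells (edgeR adjusted p = 1.92e-14) and 2.20 ± 0.17 (SE) in HU-treated cells (edgeR adjusted p = 1.12e-16). Uchl1 (chr5:67067360-67078472, plus strand) was at 1.73 and 0 CPM in WT against 15.2 and 10.5 in KO without HU, and at 0.649 and 0 against 13.6 and 22.6 with HU, again with no overlap. Its WT counts were 4 and 0 without and 2 and 0 with HU, so its rise is given as a fold of summed counts, 15.5-fold (95% interval 5.81 to 58.6) in untreated and 52.8-fold (95% interval 14.2 to 442) in HU-treated cells. The edgeR adjusted p was 4.36e-05 and 5.99e-08. Both genes were called in both comparisons under all 16 alternatives, among which the changes of the filter repeated the main fit.

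Chst15, Gas6, Tnfrsf26 and Gm364 went the other way in both conditions. Chst15 stood at 11.2 and 12.2 CPM in WT against 0 and 0.328 in KO without HU, and at 12.3 and 15.5 against 0.696 and 1.56 with HU. It was thus barely detected in WT cells of the Myc experiment and in KO cells of the HU experiment. Summed counts were higher in WT by 65.3-fold (95% interval 11.3 to 2623) without HU, where KO had 1 count in all, and by 12.6-fold (95% interval 5.53 to 35.2) with HU (edgeR adjusted p = 2.37e-06 and 4.19e-05). Gas6 was at 8.64 and 9.18 CPM in WT against 1.60 and 1.97 in KO without HU, and at 11.03 and 7.77 against 1.39 and 1.56 with HU, so that all KO libraries were below all WT libraries. Its log2FC was -2.24 ± 0.65 (SE) (edgeR adjusted p = 0.0151) and -2.59 ± 0.66 (SE) after HU (edgeR adjusted p = 0.00480). Gm364 (chrX:54662331-54741944) stood at 139 and 139.9 CPM in WT against 73.5 and 60.4 in KO without HU, and at 95.4 and 124 against 63.4 and 62.4 with HU. Both genotypes expressed Gm364, and KO was lower in every library, with a log2FC of -1.02 ± 0.15 (SE) without and -0.75 ± 0.16 (SE) with HU (edgeR adjusted p = 1.07e-06 and 0.000419).

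Tnfrsf26 was at 2.59 and 7.65 CPM in WT against 0 and 1.64 in KO without HU, and at 8.11 and 10.6 against 2.79 and 1.56 with HU. The log2FC was -2.45 ± 0.85 (SE) and -2.02 ± 0.68 (SE) with edgeR adjusted p of 0.0470 and 0.0408, and counts were few (0 and 5 in untreated KO). Each of the other genes called lower in KO was called in 1 condition. Aif1l was lower in KO than in WT without HU (26.8 and 29.8 CPM in WT and 13.6 and 15.1 in KO, log2FC -0.93 ± 0.29 (SE), edgeR adjusted p = 0.0227). With HU it stood at 20.8 and 26.8 in WT and 32.4 and 22.2 in KO. Gulp1 was lower in KO than in WT with HU (11.03 and 13.4 CPM in WT and 3.48 and 2.34 in KO, log2FC -1.99 ± 0.49 (SE), edgeR adjusted p = 0.00341). Untreated it stood at 18.1 and 16.1 in WT and 12.8 and 6.89 in KO. Creb3l1 was also lower in KO than in WT with HU (29.2 and 22.6 CPM in WT and 11.1 and 14.8 in KO, log2FC -0.95 ± 0.31 (SE), edgeR adjusted p = 0.0311). Untreated it stood at 20.3 and 16.4 in WT and 16.4 and 15.8 in KO. The difference between these conditions was itself tested as an interaction, in which edgeR called none of the 3 (unadjusted p under 0.05 in 1, Aif1l, and none called by DESeq2).

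The other 6 listed genes passed the test in neither condition. Their untreated group means in WT and KO were 6.89 and 2.25 CPM for Abcg2 (log2FC -1.61), 16.9 and 8.87 for Twist1 (-0.89) and 4.89 and 2.38 for Shank3 (-0.99). For Plcd1 they were 2.82 and 1.58 CPM (log2FC -0.75), for H2afy2 13.8 and 10.6 (-0.29) and for Smpdl3b 23.5 and 26.4 (0.21). In Abcg2 and Twist1 all 4 KO libraries were below all 4 WT libraries, and how many of all genes separate in this way was not counted. In Abcg2 the margin was narrow, as replicate 1 of untreated WT and of untreated KO had 8 counts each (3.46 and 3.19 CPM). The edgeR adjusted p for Abcg2 and Twist1 was 0.125 and 0.138 without and 0.0592 and 0.175 with HU. Shank3, at 0 in every WT library of the Myc experiment, had 12 and 12 counts in the untreated WT libraries here, and Smpdl3b, at 1 and 2 counts in WT Ctrl, stood at 22.5 and 24.5 CPM in untreated WT. The labels give the WT cells of both experiments as p19/Nras cells with a control guide, and the tables were made separately, so that this difference in level was not tested.

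Several of these calls depended on single libraries or on the tool. Leaving out KO untreated replicate 1 or WT untreated replicate 2 took away some of the 7 calls in untreated cells. Leaving out any 1 of the 4 HU-treated libraries took away some of the 8 calls after HU. Fewer of all genes were called in these fits as well. Blnk, Uchl1 and Chst15 were kept in every such fit, and no sign turned. Gm364 kept its call in untreated cells but lost it with HU when WT HU replicate 2 was left out. Gas6 lost its call in untreated cells without WT untreated replicate 2 or without either KO untreated library. With HU it lost the call without replicate 1 of WT HU or of KO HU. Over all alternatives the log2FC of Gas6 ran from -2.40 to -2.12 untreated and from -2.82 to -2.32 with HU. DESeq2 called 5 genes in untreated and 6 in HU-treated cells (751 and 736 of all 11210 genes). It called Tnfrsf26 in neither condition (DESeq2 adjusted p = 0.105 and 0.126). Nor did it call Aif1l in untreated cells (DESeq2 adjusted p = 0.0767) or Creb3l1 in HU-treated cells (DESeq2 adjusted p = 0.105). Among counts from 1 to 50, 71.9% were even in the HU table and 48.4% in the Myc table, so that counting intervals for the HU table may be too narrow. With counts divided by 2, Tnfrsf26 lost its call in untreated cells.

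**Figure D3:**
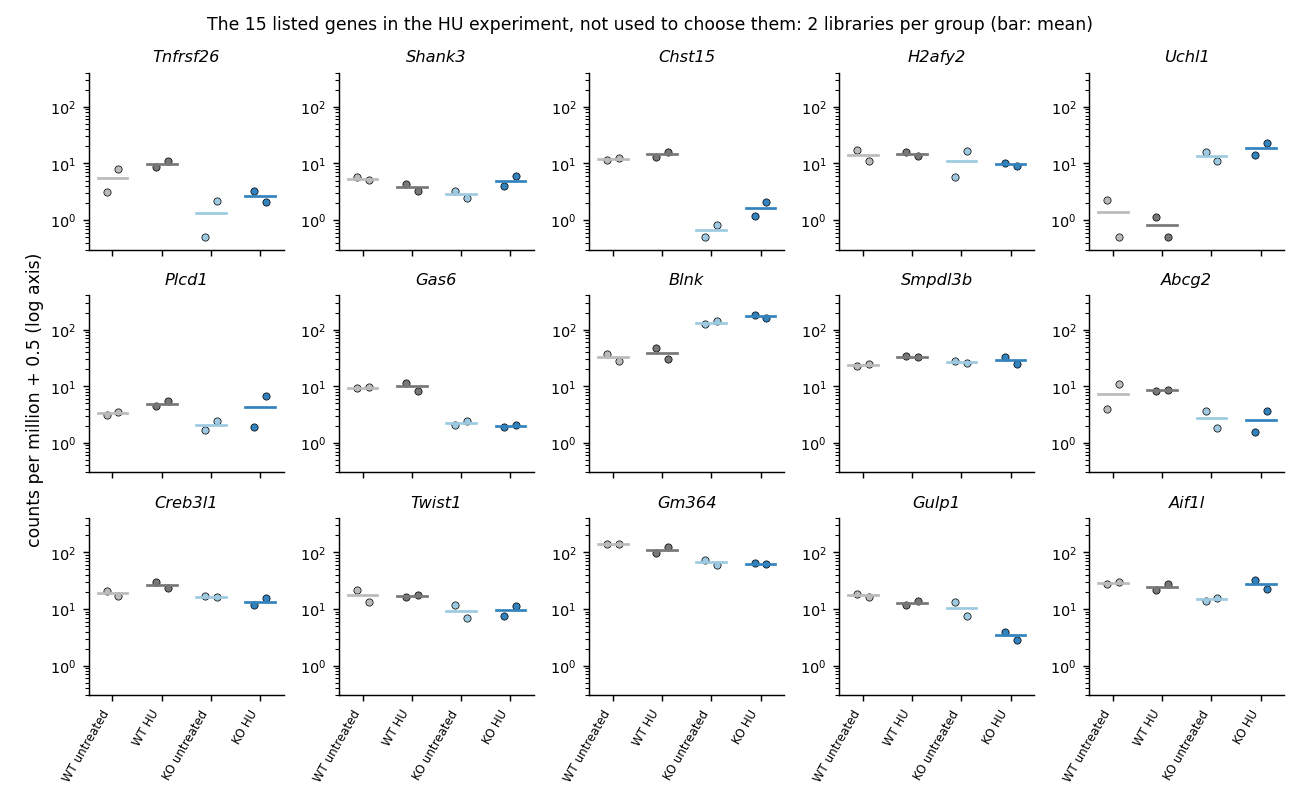
CPM + 0.5 (log axis) of the 15 listed genes in the 8 libraries of the HU experiment, 2 points per group with a bar at their mean. Blnk and Uchl1 are higher in all KO libraries than in all WT libraries. Chst15, Gas6, Gm364, Twist1 and, by a narrow margin, Abcg2 and Creb3l1 are lower in all KO libraries than in all WT libraries. How many of all genes separate in this way was not counted.

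**Figure D4:**
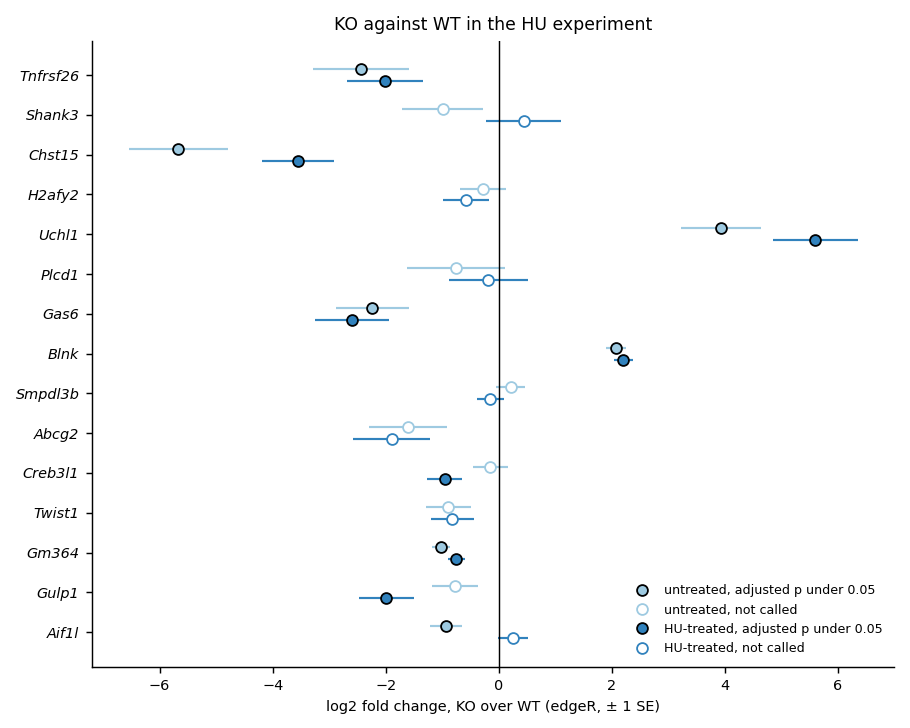
Log2 fold change of KO over WT with 1 SE for the 15 listed genes in untreated (light) and HU-treated (dark) cells; filled points have an edgeR adjusted p under 0.05. Filled points lie right of 0 for Blnk and Uchl1, and left of 0 for all other genes with a filled point, with untreated Chst15, where KO had 1 count in all, farthest left at -5.67.

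Uchl1, which was higher in KO cells in both experiments, is shown with Gas6 and Gm364, which were lower in KO cells of the HU experiment, by the 250 bases that precede their starts in the RefSeq promoter table (build GRCm38.p6). Each stretch was found once on its chromosome in mm9, at chr5:67067110-67067359 (plus strand) for Uchl1, chr8:13494536-13494785 (minus) for Gas6 and chrX:54662076-54662325 (plus) for Gm364. The end of the Uchl1 stretch overlaps an exon of the lincRNA Gm16832 in GENCODE M1. Capitals mark CG dinucleotides, the sites of DNA methylation in mammals.
Uchl1: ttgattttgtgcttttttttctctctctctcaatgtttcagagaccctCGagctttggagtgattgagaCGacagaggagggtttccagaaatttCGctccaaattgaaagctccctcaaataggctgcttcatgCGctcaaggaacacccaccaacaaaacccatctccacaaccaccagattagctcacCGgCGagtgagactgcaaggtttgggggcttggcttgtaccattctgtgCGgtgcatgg
Gas6: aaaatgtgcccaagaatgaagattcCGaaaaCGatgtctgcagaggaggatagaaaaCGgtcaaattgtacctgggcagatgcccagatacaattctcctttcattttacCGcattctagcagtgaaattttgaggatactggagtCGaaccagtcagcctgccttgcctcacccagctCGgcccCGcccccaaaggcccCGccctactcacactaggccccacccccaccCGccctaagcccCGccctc
Gm364: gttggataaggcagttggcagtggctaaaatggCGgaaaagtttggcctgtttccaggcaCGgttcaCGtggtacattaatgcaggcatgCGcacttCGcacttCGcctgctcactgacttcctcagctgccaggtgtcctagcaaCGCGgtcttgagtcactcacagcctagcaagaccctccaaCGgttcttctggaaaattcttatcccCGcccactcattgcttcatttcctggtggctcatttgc

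The stretch of Uchl1 holds 7 CG dinucleotides, and those of Gas6 and Gm364 hold 10 each. Over the full windows, which also take in 50 bases after the start, 16 of the 18 genes had at least 1 promoter in the table (20 in all, some of them overlapping), and Tnfrsf26 and Creb3l1 were not matched. The median ratio of observed to expected CpG was 0.690 for these 20 promoters and 0.754 for 12439 promoters of all listed genes, and 13 of 20 (65%) and 69.3% respectively reached 0.6. Single values ran from 0.160 in one of the Abcg2 promoters to 0.909 in Shank3, with 0.470 in Uchl1 and 0.374 in Blnk. The E2F motifs TTTGGCGC and TTTCCCGC, searched on both strands, were in none of the 20 (0.933% and 2.03% of all promoters held them), and TATAAA, searched in the 50 bases before the start on the gene's strand, was in none (1.65% of all). The E-box CACGTG was in 2 (10% against 9.79% of all), in Smpdl3b and Gm364, the AP-1 motif TGANTCA in 1 (5% against 5.44%), in Gm364, and CAGACA, searched as a Smad motif, in 4 (20% against 15.8%), in Gas6, Smpdl3b, Twist1 and one of the Abcg2 promoters. No difference in these features was tested.

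The genes also lie apart in the genome. None has another of the 18 as its nearest listed neighbor in the mm9 annotation (GENCODE M1). Of 36 neighboring genes, 4 (11.1%) had a mean over the KO libraries at least 2-fold that over the WT libraries in the Myc experiment, on the scale of CPM + 0.5, and 3.12% of all genes with a symbol did, while the median log2 ratio was 0.12 for the neighbors and 0.03 for all genes. These 4 were named after their values were seen. Tnfrsf22, a related receptor gene 6853 bases from Tnfrsf26, had a log2 ratio of 0.13, and H2afy2 and Aifm2 (0.11) overlap at their ends (gap of -617 bases), where reads of an unstranded library cannot be told apart. Dntt, the terminal transferase of lymphocytes, lies 34740 bases from Blnk and stood at 0 to 0.0658 CPM in the WT libraries, compared with 25.1 and 25.6 in KO1 Ctrl, 20.2 and 22.7 in KO2 Ctrl, 18.1 and 18.04 in KO1 Myc and 3.22 and 3.01 in KO2 Myc. In the HU experiment Dntt had no counts in the 4 WT libraries and 8 and 13 counts in the untreated and 21 and 13 in the HU-treated KO libraries (edgeR adjusted p = 0.00724 and 0.000419). Blnk and its neighbor thus both stood higher in the KO cells of both experiments. Col3a1, a fibrillar collagen 514705 bases from Gulp1, stood at 5.96 and 5.30 CPM in WT Ctrl, 28.95 and 35.5 in WT Myc and 367 and 318, 45.3 and 39.2, 35.3 and 41.2 and 357 and 344 in the KO groups. In the HU experiment it was lower in KO (log2FC -4.76 ± 0.42 (SE), edgeR adjusted p = 5.87e-14). The others were Cyp1b1, 351803 bases from Cdc42ep3, and Herc3, 138596 bases from Abcg2.

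Hydroxyurea was compared with vehicle within each genotype for the 15 listed genes. In KO cells 2 of the 15 were called (6.45% of all genes were): Aif1l rose (13.6 and 15.1 CPM untreated and 32.4 and 22.2 with HU, log2FC 0.92 ± 0.28 (SE), edgeR adjusted p = 0.0339) and Gulp1 fell (12.8 and 6.89 and 3.48 and 2.34, log2FC -1.71 ± 0.51 (SE), edgeR adjusted p = 0.0243). Neither was called by DESeq2. Leaving out replicate 1 of either KO group took away both calls, and fewer of all genes were called in those fits as well. In WT cells edgeR called 0 of the 15 (9.83% of all genes; 1 had an unadjusted p under 0.05, and DESeq2 called 0), and the difference between the HU effects of KO and WT was called in 0 (0.0714% of all genes, 1 at an unadjusted p under 0.05, and 0 by DESeq2).

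Although the 18 genes were chosen to be high in every KO group, they differed widely between these groups. With the Ctrl vector, 9 of the 18 were lower in KO2 than in KO1 (9.96% of all genes were) and 1 was higher (8.33%), by edgeR's quasi-likelihood test at an adjusted p below 0.01. The largest differences were Gulp1 (log2FC -2.77 ± 0.089 (SE)), Gm364 (2.24 ± 0.079 (SE)), Dennd2a (-1.41 ± 0.11 (SE)), Uchl1 (-1.34 ± 0.12 (SE)) and Abcg2 (-1.28 ± 0.11 (SE)). With the Myc vector, a comparison added after the data were seen, 9 were higher in the libraries labelled KO2 (9.35% of all genes) and 2 were lower (9.14%). The same 5 genes had log2FC of 1.55, -4.10, 1.13, 0.69 and 1.49 there, each with the opposite sign. Genes of at least 5 CPM in each KO group are measured more precisely in KO cells than many other genes. The rule also set limits on the same KO and WT group means, which all genes did not have to meet. The part of either in the shares called, here and for the Myc effects below, was not tested.

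Set against the Ctrl vector within a line as labelled, the Myc vector went with different changes in KO1 and KO2. In KO1, 3 of the 18 rose (17.9% of all genes) and 8 fell (18.2%), and in KO2, 9 rose (20.2%) and 5 fell (18.6%). The difference of the 2 Myc effects was itself called in 12 of the 18 (26.3% of all genes). Gm364 rose in KO1 (log2FC 2.34 ± 0.078 (SE)) and fell in KO2 (-4.00 ± 0.092 (SE)), with a difference of -6.34 ± 0.12 (SE) (edgeR adjusted p = 4.64e-16). Gulp1 fell in KO1 (-1.75 ± 0.079 (SE)) and rose in KO2 (2.57 ± 0.089 (SE)), with a difference of 4.32 ± 0.12 (SE) (edgeR adjusted p = 5.76e-14). Abcg2, Dennd2a, Uchl1 and Cdc42ep3 followed Gulp1, with log2FC of -1.30, -1.27, -1.52 and -0.88 in KO1 and 1.47, 1.26, 0.51 and 1.57 in KO2. Smpdl3b rose in both lines (0.44 and 1.69), and Creb3l1 fell in both (-0.95 and -1.02), as did Tnfrsf26 (-0.64 and -0.32). The call of Smpdl3b in KO1 was lost under 5 of 19 alternatives, and that of Uchl1 in KO2 under 4 of 19. Mesenchymal markers moved with these comparisons: 8 of 8 tested fell in KO1, and in KO2 5 rose and 1 fell, and their part was not tested.

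Across the crossed pairs, fewer genes were called between vectors, both among the 18 and among all genes. Of all 13107 genes, 3873 and 3777 were called in the crossed pairs, compared with 4735 and 5090 as labelled. KO1 Myc against KO2 Ctrl called 6 (29.5% of all genes) and KO2 Myc against KO1 Ctrl called 7 (28.8%), compared with 11 and 14 for the pairs as labelled. Gm364 had a log2FC of 0.10 ± 0.068 (SE) in the first crossed pair and -1.76 ± 0.1 (SE) in the second, and Gulp1 of 1.02 ± 0.1 (SE) and -0.21 ± 0.07 (SE). Abcg2 (-0.02 and 0.18), Dennd2a (0.14 and -0.15), Cdc42ep3 (0.32 and 0.37), H2afy2 (-0.28 and -0.00) and Plcd1 (0.30 and 0.48) were called in neither. Uchl1 (-0.18 and -0.83) and Tnfrsf26 (-0.17 and -0.79) were called in the second, and Blnk in both (0.42 and -0.79). Smpdl3b rose (1.11 and 1.02), Aif1l rose (0.72 and 0.58) and Creb3l1 fell (-1.19 and -0.77) in both crossed pairs, at edgeR adjusted p of 2.30e-06, 1.51e-06, 2.62e-05, 6.18e-05, 1.47e-05 and 0.000709. Shank3, Gas6, Twist1 and 2210016F16Rik were called in none of the comparisons of KO groups, crossed or as labelled.

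In WT cells, where most of the genes were near 0, the Myc vector went with a rise of 6 of the 18 (21.6% of all genes) and a fall of 1 (22.7%). Smpdl3b went from 1 and 2 counts to 14 and 32 (log2FC 3.67 ± 0.59 (SE), edgeR adjusted p = 6.91e-05) and Gas6 from 1 and 5 to 39 and 39 counts (3.49 ± 0.41 (SE), edgeR adjusted p = 2.85e-06). H2afy2 (1.85), Aif1l (1.83), Gulp1 (1.57) and Blnk (0.40) also rose, and Gm364 fell (-1.61). Leaving out WT Ctrl replicate 2 took away some of these 7 calls, and fewer of all genes were called in that fit as well. The call of Blnk was lost under 8 of 19 alternatives, among them DESeq2 and the fit of the compared groups alone. The WT Myc level was still below every KO group mean in each of the 18 genes, as the choice requires.

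None of the 18 genes is on the lists of TIF1 and retroelement repressors, TGF-beta and BMP pathway genes, germline genes kept methylated in somatic cells, interferon-stimulated genes or neuronal and REST target genes. These lists and the marker lists were chosen with earlier results known. In untreated cells of the HU experiment, 5 of 25 tested TGF-beta and BMP genes were higher in KO and 2 were lower (6.29% and 5.74% of all genes), with a median log2FC of 0.05, while with HU 3 were higher and 4 lower (5.75% and 5.25% of all genes), with a median of -0.05. In untreated cells, of 18 tested TIF1 and retroelement repressors 2 were higher and 1, Trim33 itself, was lower, with a median of 0.06, and with HU 2 were higher and 1 lower, with a median of 0.09. Trim24 was among the higher ones (44.9 and 42.8 CPM in WT and 113 and 102 in KO, log2FC 1.34 ± 0.16 (SE), edgeR adjusted p = 2.27e-09), and its KO libraries also lay above the WT libraries in the Myc experiment. Of the other lists, 1 of 7 interferon-stimulated genes, 0 of 5 neuronal and REST targets and 0 of 1 germline genes tested were called in untreated cells by edgeR, the called one higher in KO, and with HU none of these 3 lists had a called gene. Of the marker lists in untreated cells, 1 of 4 biliary or progenitor markers was higher and 1 lower, 2 of 5 mesenchymal markers were lower, 1 of 4 neural markers was higher and 1 lower, and 0 of 2 hepatocyte and 0 of 2 blood markers were called. With HU, 1 biliary or progenitor, 1 mesenchymal, 2 neural and 1 hepatocyte marker were higher, and 1 mesenchymal and 1 neural marker were lower.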

How the data were processed

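Total RNA of p19/Nras cells was sequenced in 12 libraries of the Myc experiment and 8 of the HU experiment. Per the submitters' processing notes, reads were aligned to mm9 with STAR 2.5.4 and analysed with edgeR 3.26.8, after bcl2fastq 2.20 and FastQC 0.11.5 for the HU libraries. The authors deposited counts per gene in 2 tables, made before any test. The name they gave to the counts of the Myc experiment calls them normalized (Norm). Both sets are whole numbers that sum to different totals and were used as counts. Intervals and tests here assume that the counts had not been scaled before, which was not tested. The counting tool is not given in the sources used here. Deposited comparison tables of the authors (log2 fold changes, logCPM, F, p-values and FDR) were not used, and 0 sample columns were left out.

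The 18 genes and all gene lists were chosen with earlier results of these data known. CPM were counts over column sums. Each table was fitted whole in R 4.3.3 with edgeR 4.0.16 (TMM, filterByExpr, quasi-likelihood test, all libraries in 1 fit), with Benjamini-Hochberg adjustment over all genes and a threshold of 0.01 in the Myc and 0.05 in the HU experiment. No gene was removed by the filter. The SE was the log2FC divided by the square root of F. DESeq2 1.42.0 was an alternative, as were other size factors, other filters, a fold threshold, the groups compared alone, a replicate block, counts divided by 2, and each library left out. Crossed pairs of KO groups, KO2 against KO1 with Myc, and choices of genes by 1 vector alone were added after the data were seen. With 2 libraries a group, p-values measure the spread between these libraries, which may be technical.

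Genes were named by rule: the 12 with the largest ratio between the lowest KO and the higher WT mean, all genes called lower and the 8 called with the largest change between KO and WT of the HU experiment, the 5 called with the largest change in every other comparison, and 2 genes on each side of the thresholds. Others were named by role. Neighboring genes came from GENCODE M1 (mm9) and promoters from RefSeq (GRCm38.p6), matched by Entrez ID.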

Additional observations from a re-analysis of the deposited data

Results flagged for a closer look

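The effect of the Myc vector differed between the libraries labelled KO1 and KO2 in 12 of the 18 genes (26.3% of all genes). This was tested by the interaction term of the edgeR fit (Myc effect in KO2 minus that in KO1). The rule asked for at least 5 CPM in each of these KO group means, which all genes did not have to meet. The part of the rule in these shares was not tested. The difference in log2FC was -6.34 for Gm364 and -1.65 for Blnk. It was 4.32 for Gulp1, 2.77 for Abcg2, 2.54 for Dennd2a, 2.45 for Cdc42ep3 and 2.03 for Uchl1. It was 1.44 for Plcd1, 1.33 for H2afy2, 1.32 for Aif1l, 1.24 for Smpdl3b and 0.31 for Tnfrsf26. The Tnfrsf26 difference was called under 5 of 19 alternatives, the other 11 under all 19. Between the crossed pairs, Myc against Ctrl was called in neither pair for Abcg2, Dennd2a, Cdc42ep3, H2afy2 and Plcd1. Beside these differences stands the correlation of -0.750 across all genes between the differences of the 2 lines under each vector, and its part in these values was not tested.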

How the results depend on the processing

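Of 71 results in which a gene of the 18 was called, 43 were kept under every alternative run. Over 1297 alternative values of these, 1209 kept the call, 88 lost it and 0 turned round. The fit without a filter repeated the main fit, as the filter removed 0 genes. In the HU experiment, so did the filter of at least 1 CPM in at least 2 libraries. Calls under these alternatives were kept by construction. Asking also for an absolute log2FC of at least 1 left 5 of 11 genes called for Myc in KO1. It left 6 of 10 for KO2 against KO1 with Ctrl and 1 of 2 for HU in KO, where DESeq2 left 0. Over all genes, this threshold left 1025 of 4735, 654 of 2398 and 262 of 723 calls. DESeq2 called 456 of all genes for HU in KO. Crossing the lines left 6 genes for KO1 Myc against KO2 Ctrl and 7 for KO2 Myc against KO1 Ctrl, compared with 11 and 14 as labelled. Of all 13107 genes it left 3873 and 3777, compared with 4735 and 5090 as labelled. The Ctrl-vector libraries alone chose 117 genes and the Myc-vector libraries alone 31. The cause was not tested.

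When single libraries were left out, the number of genes called ran from 4 (without WT Ctrl replicate 2) to 9 for Myc in WT, and from 4 (without KO untreated replicate 1 or WT untreated replicate 2) to 8 for KO against WT in untreated cells. It ran from 4 (without WT HU replicate 2) to 9 for KO against WT with HU, and from 0 (without replicate 1 of either KO group) to 2 for HU in KO. The interaction of Tnfrsf26 (0.31) was lost under 14 of 19 alternatives. A group left with 1 library was assumed to vary like the others. For the HU interaction, a fit of the groups compared alone is the fit of all 8 libraries, so it gives no further value.

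The main fits did not pair samples by replicate number, and no label says whether these numbers mark a batch. Deviations of same-numbered libraries correlated from -0.258 to 0.339 between groups in the Myc and from -0.0139 to 0.0565 in the HU experiment. The value of 0.339 was between KO1 Myc and WT Myc, and that of -0.258 between KO2 Myc and WT Myc. Whether a batch lies behind them was not tested. With the replicate block, 11 genes were called for Myc in KO1, 14 in KO2 and 12 for their difference. There were 11 for KO2 against KO1 with Ctrl (10 without the block) and 7 for Myc in WT. For KO against WT, 7 were called untreated and 9 with HU (8 without the block). For HU there were 2 in KO, 0 in WT and 0 for the interaction. Over all genes, the block gave 4812, 5197, 3525, 2458, 5932, 1494, 1402, 825, 1230 and 10 calls in the same order. Few counts limit the folds of Chst15, Plcd1, Shank3 and Cdc42ep3 in WT cells given either vector, and those of Smpdl3b, Gas6 and H2afy2 in WT Ctrl cells. In the HU table they limit those of Uchl1 in WT and of Chst15, Gas6 and Tnfrsf26 in KO cells.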
